A study of Mus musculus with 12 samples.

Results

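The question addressed here was whether the spleen of mice lacking DUSP1 answers lipopolysaccharide (LPS, a cell wall component of Gram-negative bacteria) differently from the spleen of mice that have it. The measure is the difference of responses: the log2 change from control to LPS in DUSP1-/- mice minus the same change in DUSP1+/+ mice, so that a value above 0 is a larger rise or a smaller fall in the DUSP1-/- mice. All 12 arrays of the series entered it, in 4 groups of 3: untreated DUSP1+/+ mice, DUSP1+/+ mice injected intraperitoneally with E. coli LPS at 10 µg per g body weight and killed 6 h later, untreated DUSP1-/- mice, and DUSP1-/- mice given the same LPS dose for the same time. Each array held total RNA (5 µg) of the whole spleen of 1 mouse, hybridised to an Affymetrix MOE430A 2.0 GeneChip. Strain, sex, age and the construct of the DUSP1 allele were not given in the sources used here, and the controls carry no vehicle injection in the labels. The difference was tested for 22626 of the 22690 probe sets (64 control sets were left out), and genes are described by 1 probe set each, 12393 genes in all.

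DUSP1 is a nuclear phosphatase that removes phosphate from p38 and JNK MAP kinases and so ends the signal that Toll-like receptors start when they sense LPS. p38 also keeps many AU-rich cytokine messages from being degraded, through its kinase MK2 and the RNA-binding protein tristetraprolin. The spleen holds B and T lymphocytes in its white pulp and macrophages that recycle red cell iron in its red pulp, and after systemic LPS these cells and the vessel lining release cytokines and chemokines.

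The arrays also differed in ways that the labels do not name, and some of these differences ran along the groups. Markers of B cells and of T cells were present on every array (mean log2 intensity 8.48 to 10.01 and 6.62 to 8.20). A list of 20 measured pancreatic acinar transcripts averaged 11.66 (log2 intensity) on DUSP1+/+ control 1, 10.58 on DUSP1-/- control 1 and 7.55 on DUSP1-/- control 3, against 4.02 to 4.81 on the other 9 arrays. The lung list lay higher on the DUSP1-/- LPS arrays (5.41 to 7.08) than on most DUSP1+/+ LPS arrays (5.15 to 5.46), with overlap, and the liver list spanned 6.04 to 8.74 and 5.62 to 7.73 in these groups. The log2 ratio of 3′ to 5′ actin signal was 0.353 to 0.469 on the DUSP1-/- LPS arrays and 0.282 to 0.295 on the DUSP1+/+ LPS arrays, without overlap, and that of Gapdh 0.210 to 0.333 and 0.0884 to 0.139. DUSP1+/+ controls 2 and 3 had the Y-linked Eif2s3y at 316 and 53 and the X-inactivation transcript Xist at 35 and 47, while the other 10 arrays had 7 to 10 and 1101 to 3949. The part of these differences in the results was not tested beyond the left-out arrays and covariates given in the closing section.

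**Figure D1:**
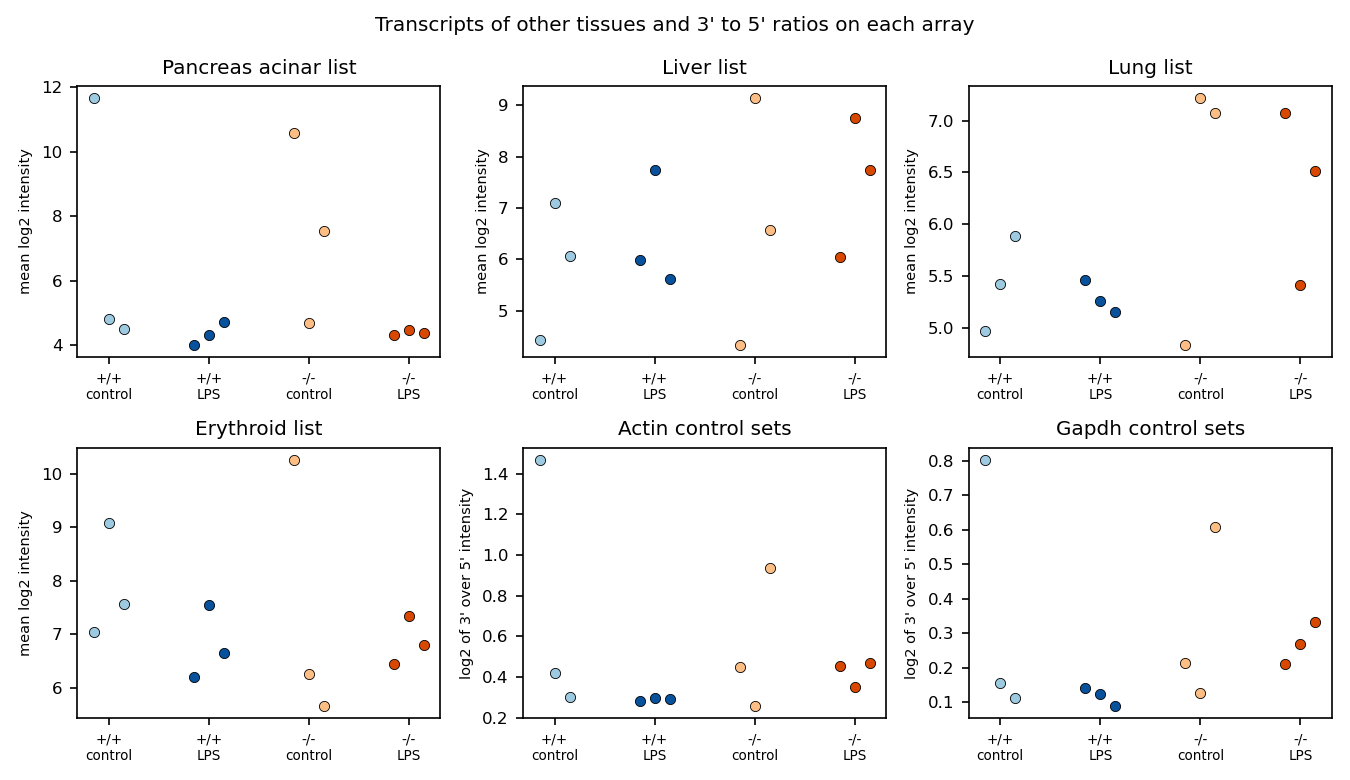
Mean log2 intensity of 4 lists of transcripts from other tissues and cells, and log2 of 3′ over 5′ signal of the actin and Gapdh control sets (y axes), for each array by group (x axis, 1 point per array). The pancreas list stands high on 3 control arrays, and both 3′ to 5′ ratios are higher on all 3 DUSP1-/- LPS arrays than on all 3 DUSP1+/+ LPS arrays.

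The genotypes answered LPS with the same broad programme. Of the 12393 genes, 1002 changed with LPS in DUSP1+/+ spleen (8.09%; 487 or 3.93% rose and 515 or 4.16% fell) and 1889 in DUSP1-/- spleen (15.2%; 686 or 5.54% rose and 1203 or 9.71% fell), at a limma adjusted p under 0.05. The balance in DUSP1-/- spleen depends on scaling: with each array shifted to 1 median, 931 rose and 759 fell. The genes called in both numbered 737, which is 73.6% of the DUSP1+/+ calls and 39.0% of the DUSP1-/- calls, and 0 of them moved in opposite directions. Across genes, which are not independent replicates, the responses had a Pearson correlation of 0.80 and a Spearman correlation of 0.70, and they share no array. Between the untreated groups 0 genes passed (0%), and 176 (1.42%) had an unadjusted p under 0.05. The spread of the response over genes (SD, log2) was 0.74 in DUSP1+/+ and 0.86 in DUSP1-/- spleen.

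The difference of responses itself passed the threshold for 0 of 22626 probe sets (0%) and 0 of 12393 genes (0%), by limma with Benjamini-Hochberg adjustment over all probe sets. The lowest adjusted p was 0.164, and 1230 probe sets (5.44%) and 800 genes (6.46%) had an unadjusted p under 0.05. Of those genes 307 lay above 0 (2.48% of all genes) and 493 below (3.98%). The median standard error was 0.38 on the log2 scale, and the unadjusted 95% interval reached a median of 0.84 to either side. With 3 mice per group, differences well beyond that size also did not pass after adjustment, up to 3.42 above 0 (Serpinb2). In 151 genes (1.22%) all 9 pairings of a DUSP1-/- LPS with a DUSP1-/- control array gave a larger response than all 9 pairings in DUSP1+/+ mice, and in 163 genes (1.32%) all gave a smaller one. Every gene named below is therefore given as a value that did not pass the test of the difference, beside its responses and its difference after LPS, which have tests of their own on the same arrays. The calls do depend on the control arrays: without the 3 arrays high in pancreas transcripts, which leaves DUSP1-/- control 2 as the lone control of its genotype, 81 genes passed above 0 and 21 below. The DUSP1+/+ controls left in that fit are 2 and 3, which had the Y-linked signal, so that control genotype and sex-linked pattern cannot be told apart there, and Xist was among its calls (-6.31).

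**Figure D2:**
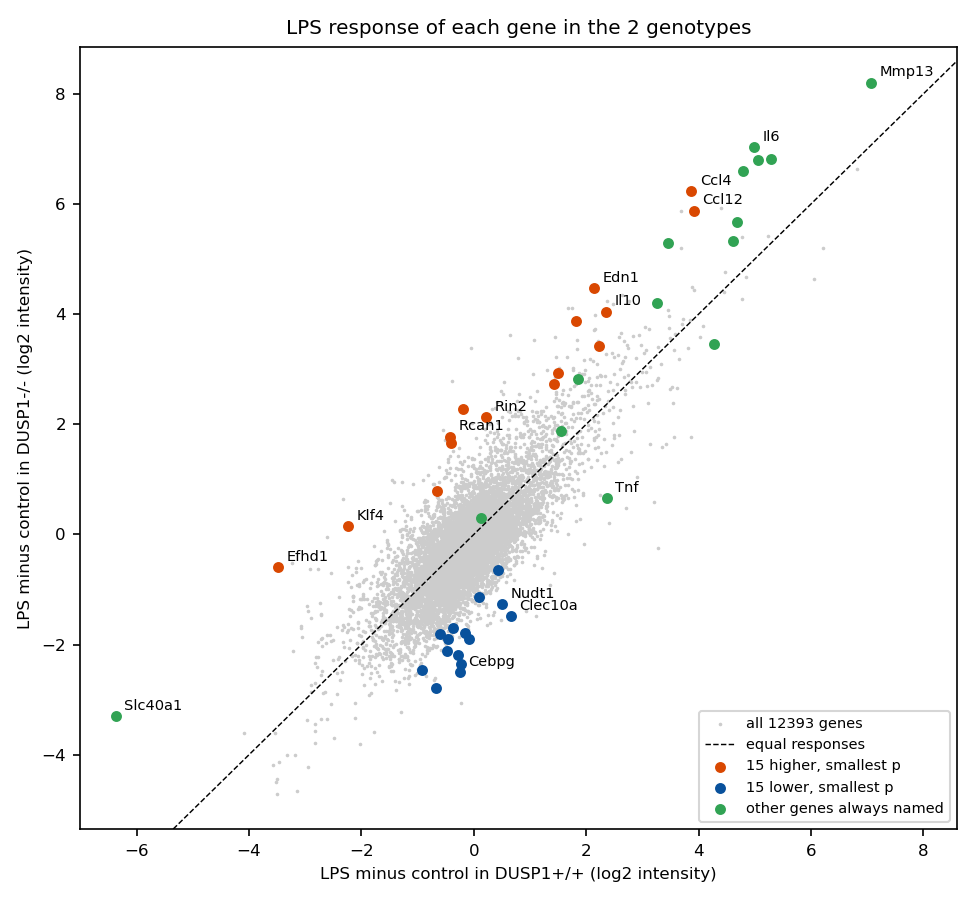
LPS response in DUSP1+/+ spleen (x axis, log2) against LPS response in DUSP1-/- spleen (y axis, log2) for 12393 genes, with named genes labelled. Most genes lie along the diagonal (Pearson correlation 0.80 across genes), with Ccl4, Edn1 and Il10 above it and Tnf and Cebpg below it.

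Of the 15 measured monocyte-attracting and other CC chemokines, 11 had a difference of responses above 0 and 4 below, from -0.70 to 2.37 on the log2 scale. Ccl4, a chemokine of activated macrophages also called MIP-1β, read 54, 31 and 53 in DUSP1+/+ controls and 452, 945 and 651 after LPS, against 39, 60 and 49 in DUSP1-/- controls and 3299, 4141 and 3629 after LPS (array intensity). The controls of the genotypes overlapped, and every LPS-treated DUSP1-/- mouse lay above every LPS-treated DUSP1+/+ mouse. Ccl4 rose by 3.87 ± 0.30 (log2, SE) in DUSP1+/+ and by 6.24 ± 0.30 in DUSP1-/- spleen, a difference of 2.37 ± 0.43 with a 95% interval of 1.43 to 3.31 and an adjusted p of 0.262 (limma). The difference between the genotypes after LPS was 2.49 and passed (adjusted p 0.0118). Ccl12, a monocyte attractant that signals through CCR2, read 16, 18 and 14, then 222, 243 and 255 with LPS in DUSP1+/+ mice, and 13, 18 and 19, then 879, 1352 and 767 in DUSP1-/- mice. It started low in both genotypes and rose in both, with a difference of responses of 1.97 ± 0.33 (adjusted p 0.252, limma). Ccl3, also called MIP-1α, reached 707, 774 and 369 in DUSP1+/+ and 2517, 2498 and 2883 in DUSP1-/- LPS arrays. Its controls read 21, 19 and 24 against 19, 55 and 19, the 55 being DUSP1-/- control 2. The difference of the Ccl3 responses was 1.81 ± 0.56, and Ccl2, the classical monocyte attractant, had 0.98 ± 0.58 with responses that overlapped. In this list 8 genes rose in each genotype, against 3.93% of all genes in DUSP1+/+ and 5.54% in DUSP1-/- spleen. The median difference of responses was 0.51 against -0.05 over all genes, and 3 members (Ccl4, Ccl12 and Ccl3) had an unadjusted limma p under 0.05, all above 0.

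Of the 7 measured neutrophil-attracting chemokines, 5 had a difference above 0 and 2 below, from -0.53 to 1.74. Cxcl1, a ligand of CXCR2, read 18, 60 and 68 in DUSP1+/+ controls and 16, 94 and 28 in DUSP1-/- controls. After LPS it read 1141, 1312 and 1817 against 4822, 3177 and 3828, so that the treated groups did not overlap while the responses did. The difference of responses was 1.74 ± 0.89 for Cxcl1 and 1.51 ± 0.64 for Cxcl2, another CXCR2 ligand. Csf3, the growth factor of granulocytes, had 0.72 ± 0.44. The median of the list was 0.39, and 1 member (Cxcl2) had an unadjusted p under 0.05. The 4 interferon gamma-induced chemokines rose in both genotypes, and all 4 differences lay below 0 with a median of -0.16. Ifng itself, the cytokine that induces them, read 229, 160 and 438 in DUSP1+/+ and 193, 115 and 260 in DUSP1-/- LPS arrays, which overlapped.

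Among cytokines, members on either side of 0 stood out. Il10, the cytokine that restrains macrophage activation, read 12, 14 and 17 in DUSP1+/+ controls and 13, 17 and 14 in DUSP1-/- controls, low on every control array. After LPS it read 79, 89 and 55 in DUSP1+/+ against 305, 215 and 214 in DUSP1-/- mice, with no overlap. Il10 rose by 2.36 ± 0.23 and by 4.05 ± 0.23 (log2), a difference of 1.69 ± 0.33 with an adjusted p of 0.272 (limma), and the genotypes differed after LPS by 1.73 (adjusted p 0.0173). Lif, an IL-6 family cytokine, rose from 16, 15 and 21 to 40, 47 and 60 in DUSP1+/+ mice, and from 20, 19 and 20 to 179, 143 and 130 in DUSP1-/- mice. The highest DUSP1+/+ LPS array thus stayed below the lowest DUSP1-/- LPS array, and the difference of responses was 1.43 ± 0.28 (adjusted p 0.289, limma), or 0.79 with the median over both Lif probe sets. Il6, the fever and acute phase cytokine, read 603, 183 and 585 against 3021, 2069 and 3063 after LPS. Its DUSP1-/- controls read 11, 59 and 13, so that 1 control array took the responses into overlap, and the difference was 2.05 ± 0.86, or 2.81 without DUSP1-/- control 2.

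Tnf, the early macrophage cytokine, ran the other way. It read 70, 44 and 88 in DUSP1+/+ controls and 66, 111 and 72 in DUSP1-/- controls. After LPS it read 272, 427 and 322 in DUSP1+/+ and 121, 145 and 120 in DUSP1-/- mice, so that every treated DUSP1-/- mouse lay below every treated DUSP1+/+ mouse. Tnf rose by 2.37 ± 0.29 in DUSP1+/+ spleen, and the DUSP1-/- value was 0.67 ± 0.29, which did not pass (adjusted p 0.178, limma). The difference was -1.70 ± 0.41 (adjusted p 0.408), and that between the genotypes after LPS -1.38 (adjusted p 0.0885). Il1b, the inflammasome-processed cytokine, had 0.98 ± 0.82 with overlapping arrays. Of the 22 measured proinflammatory cytokines 9 rose in DUSP1+/+ and 12 in DUSP1-/- spleen, against 3.93% and 5.54% of all genes. The median difference was 0.46, and 3 had an unadjusted limma p under 0.05 above 0 (Lif, Il6 and Il15) and 1 below (Tnf).

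Promoters of 4 named genes are shown for their values on either side of 0, none of which passed the test of the difference: Ccl12, Edn1 and Il6 above and Tnf below. Each is the 250 bases before the annotated start (RefSeq, GRCm38.p6), read 5′ to 3′ on the gene's strand, with matches to TGANTCA (AP-1), TGACGTCA (CRE), the NF-kB consensus in a strict and a looser form, TTCNNNGAA (STAT) and TATAAA (the box that places the start of many promoters) on either strand in capitals. They lie at chr11:82101595-82101844 (plus strand) for Ccl12, chr13:42301226-42301475 (plus) for Edn1, chr5:30012864-30013113 (plus) for Il6 and chr17:35202008-35202257 (minus) for Tnf.
Ccl12: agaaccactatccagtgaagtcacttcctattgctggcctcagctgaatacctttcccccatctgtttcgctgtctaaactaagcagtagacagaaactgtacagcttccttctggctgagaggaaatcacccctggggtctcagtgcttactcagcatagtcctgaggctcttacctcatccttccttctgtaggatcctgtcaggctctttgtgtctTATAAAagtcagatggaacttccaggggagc
Edn1: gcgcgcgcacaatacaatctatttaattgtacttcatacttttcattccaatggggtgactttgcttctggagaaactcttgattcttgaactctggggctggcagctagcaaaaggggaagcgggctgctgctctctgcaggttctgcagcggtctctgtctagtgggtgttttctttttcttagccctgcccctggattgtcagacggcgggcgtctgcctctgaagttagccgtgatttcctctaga
Il6: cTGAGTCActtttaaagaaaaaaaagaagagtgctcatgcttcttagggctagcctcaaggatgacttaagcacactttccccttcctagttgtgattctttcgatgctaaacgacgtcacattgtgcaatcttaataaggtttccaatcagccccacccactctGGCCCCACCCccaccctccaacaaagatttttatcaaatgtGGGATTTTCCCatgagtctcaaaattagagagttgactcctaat
Tnf: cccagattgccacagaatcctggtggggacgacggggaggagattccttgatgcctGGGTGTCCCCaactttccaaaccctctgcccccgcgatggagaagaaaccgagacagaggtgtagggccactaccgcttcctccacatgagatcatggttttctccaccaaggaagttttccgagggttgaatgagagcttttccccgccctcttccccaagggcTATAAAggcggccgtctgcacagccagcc
Il6 held GGGATTTTCC (strict NF-kB) starting at position -44 from the start and TGAGTCA (AP-1) at -249, with a looser NF-kB match, GGCCCCACCC, at -85. Tnf held GGGTGTCCCC (looser NF-kB) at -194, and Ccl12 and Tnf each held TATAAA, at -31 and -29. The strict NF-kB form occurred in 1.41% of all 32851 RefSeq promoter windows and TGANTCA in 6.75%, while the looser form, which also takes in every match of the strict form, occurred in 45.8% and TATAAA in 12.4%. The window of Edn1 held none of the 6 letter patterns, which occurred in 1.41% to 45.8% of all windows, TGACGTCA in 1.55% and TTCNNNGAA in 7.02%.

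Among the 46 lists, genes of the vessel wall and of clotting held the largest share of members with low p-values. Of them 41.7% had an unadjusted limma p under 0.05, against 6.46% of all genes and 9.1% of those above the 40th percentile of intensity. The lists were chosen with earlier results of these data known, so this rank is a description and not a test. Edn1, which encodes the vasoconstrictor endothelin-1, read 23, 21 and 28 in DUSP1+/+ controls, 112, 86 and 120 with LPS, 17, 43 and 22 in DUSP1-/- controls and 446, 577 and 694 with LPS. The treated groups stood well apart while the controls overlapped, and the difference of responses was 2.34 ± 0.45 (adjusted p 0.265, limma). Plat, the tissue plasminogen activator, reached 123, 69 and 99 in DUSP1+/+ and 430, 625 and 313 in DUSP1-/- LPS arrays, with a difference of 2.06 ± 0.43. Serpinb2, the inhibitor of plasminogen activators known as PAI-2, had the lowest adjusted p of all genes (0.164, limma). It read between 10 and 13 on all 9 arrays of the other groups and 119, 60 and 173 on the DUSP1-/- LPS arrays, a difference of responses of 3.42 ± 0.45. It rose in DUSP1-/- spleen by 3.38 ± 0.32, while the DUSP1+/+ value was -0.05 ± 0.32, and its difference ranged from 1.10 with a floor of 50 (adjusted p 1.00, limma) to 3.84 without DUSP1-/- LPS array 2, where it passed (adjusted p 0.00377).

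Other members of this group had different starting points. Thbd, thrombomodulin, the endothelial receptor that turns thrombin into an anticoagulant, read 253, 290 and 405 in DUSP1+/+ controls and 61, 28 and 136 with LPS, and 199, 241 and 255 in DUSP1-/- controls and 380, 490 and 252 with LPS. It fell by 2.33 on the log2 scale in DUSP1+/+ spleen and had a value of 0.65 in DUSP1-/- spleen that did not pass, a difference of 2.98 ± 0.67. F3, tissue factor, which starts coagulation, read 23, 21 and 30 against 100, 69 and 80 after LPS and rose in DUSP1-/- spleen by 1.91 ± 0.31, while its DUSP1+/+ value of 0.19 ± 0.31 did not pass. Ptx3, a soluble pattern receptor made by endothelium and macrophages, reached 48, 48 and 21 against 183, 182 and 196, with a difference of 2.36 ± 0.48. Thbd, F3, Tfpi2 (2.14) and F10 (-1.57, or 0.20 with the median over its probe sets) were added after their values were seen. Of the 24 measured coagulation and endothelial activation genes, 8 rose and 3 fell in DUSP1+/+ spleen, against 3.93% and 4.16% of all genes. In DUSP1-/- spleen 14 rose and 1 fell, against 5.54% and 9.71%. The median difference was 0.77, with 9 unadjusted p under 0.05 above 0 and 1, F10, below, against 2.48% and 3.98% of all genes. Several of these genes (Serpinb2, Ptx3, Edn1) start from control geometric means below an intensity of 30.5, the 40th percentile of all probe set means. Edn1 read 43 on DUSP1-/- control 2.

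Of the 20 measured matrix metalloproteinases and inhibitors, 14 had a difference above 0 and 6 below, from -1.01 to 3.17. Mmp13, collagenase 3, had the largest induction among the genes always named: 10, 13 and 10 to 1806, 798 and 2184 in DUSP1+/+ mice, and 13, 11 and 8 to 3455, 2349 and 3637 in DUSP1-/- mice. Its treated groups did not overlap, its responses did, and the difference was 1.14 ± 0.50. Mmp12, macrophage elastase, read 16, 17 and 20 in DUSP1+/+ and 176, 61 and 342 in DUSP1-/- LPS arrays, a difference of responses of 3.17 ± 0.76. Adamts1, a secreted proteoglycan-cleaving protease, read 87, 35 and 121 against 369, 409 and 389, and had 2.41 ± 0.81. In this list 5 members rose and 3 fell in DUSP1+/+ spleen, and 11 rose and 2 fell in DUSP1-/- spleen, against 3.93% and 4.16%, and 5.54% and 9.71%, of all genes. The median difference was 0.45, and 5 members had an unadjusted p under 0.05, all above 0. With a floor of 50 the difference of Mmp12 was 1.63 and that of Thbs2, described next, 0.42; without DUSP1+/+ LPS array 2 that of Mmp13 was 0.70. Thbs2, a matrix glycoprotein that binds proteases, read 41, 35 and 33, then 23, 21 and 25 in DUSP1+/+ mice, and 36, 50 and 32, then 78, 61 and 63 in DUSP1-/- mice, a difference of 1.45 ± 0.28 (adjusted p 0.265, limma).

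**Figure D3:**
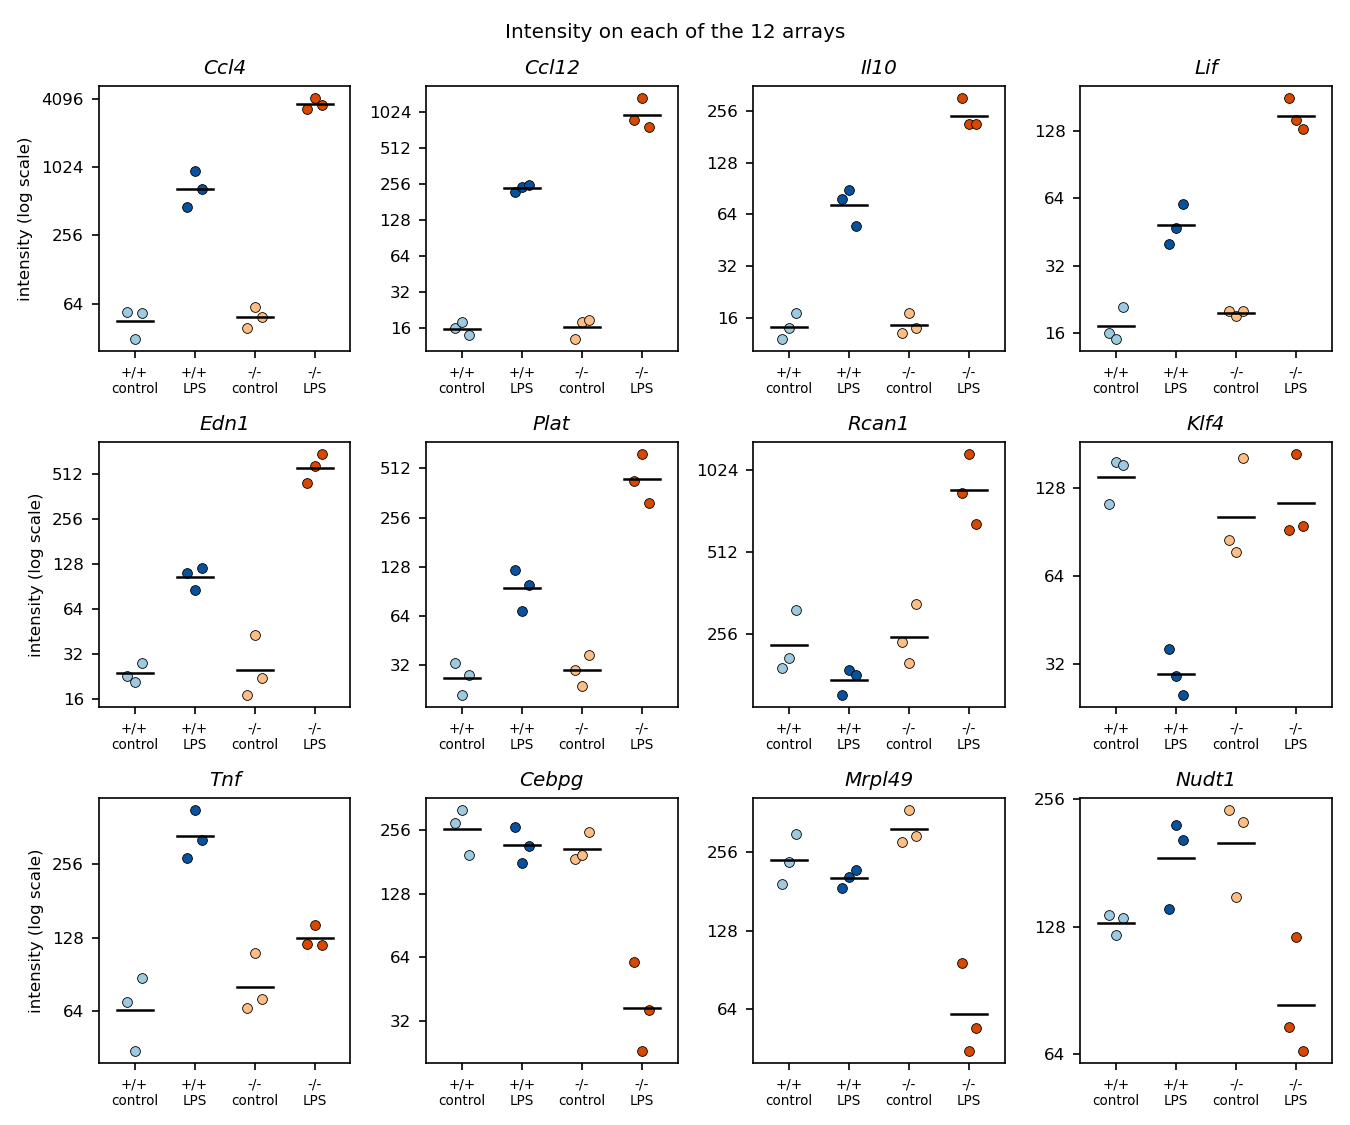
Array intensity (y axis, log scale) of selected genes in each of the 12 mice, by group (x axis), with 1 point per array and a bar at the geometric mean of each group. The 3 DUSP1-/- LPS points lie above the 3 DUSP1+/+ LPS points for Ccl4 and Il10 and below them for Tnf and Cebpg.

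The remaining genes with the lowest p-values above 0 had varied roles. Rcan1, an inhibitor of the phosphatase calcineurin, read 193, 209 and 315, then 153, 190 and 181 in DUSP1+/+ mice, and 239, 201 and 329, then 844, 1168 and 646 in DUSP1-/- mice. The DUSP1+/+ value of -0.42 ± 0.27 did not pass, Rcan1 rose in DUSP1-/- spleen by 1.78 ± 0.27, and the difference was 2.20 ± 0.39 (adjusted p 0.252, limma). Klf4, a zinc finger factor of monocytes and endothelium, fell in DUSP1+/+ mice from 113, 157 and 153 to 36, 29 and 25. In DUSP1-/- mice it read 85, 77 and 162 before and 92, 167 and 95 after LPS, a response of 0.15 ± 0.32 that did not pass, and the difference was 2.39 ± 0.45. Rin2, a Rab5 exchange factor of endocytosis, stayed between 42 and 74 on all arrays but those of the LPS-treated DUSP1-/- mice, which read 243, 215 and 273. Its difference of 1.91 ± 0.29 had an adjusted p of 0.252 (limma), and after LPS the genotypes differed by 1.96 (adjusted p 0.00812). Cpeb2, an RNA-binding regulator of translation, and Cdh17, a cadherin, rose in DUSP1-/- spleen and had differences of 2.06 ± 0.38 and 2.47 ± 0.51. Efhd1, a mitochondrial calcium-binding protein, fell in DUSP1+/+ mice from 147, 178 and 241 to 16, 22 and 13. The DUSP1-/- value of Efhd1, -0.60 ± 0.44, did not pass, and its difference was 2.88 ± 0.62, or 1.29 to 4.19 over the alternatives run. Mapk6, the atypical MAP kinase ERK3, rose in both genotypes and had 1.30 ± 0.27, and Rhou, a small GTPase, rose in both and had 1.19 ± 0.26.

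These 15 genes (Rin2, Ccl12, Rcan1, Ccl4, Cpeb2, Thbs2, Klf4, Edn1, Il10, Lif, Mapk6, Cdh17, Plat, Efhd1 and Rhou) had the smallest p above 0 among genes whose mean log2 intensity exceeded the 40th percentile. Because they were ranked by that p, their values of 1.19 to 2.88 are a description. Their control differences between genotypes ran from -0.53 to 0.20 and their differences after LPS from 0.93 to 2.49, of which 13 passed on arrays that the ranking also used, against 0.363% of all genes (45 of 12393, 27 higher and 18 lower). That count and its balance are sensitive: with array quality weights 471 genes were higher and 809 lower, and with the lung list as a covariate 12 and 26; without DUSP1+/+ LPS array 2 or 3 it was 3 and 5 genes, without DUSP1-/- LPS array 3 it was 7, and without DUSP1-/- LPS array 1 or 2 it was 13 and 12.

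**Figure D4:**
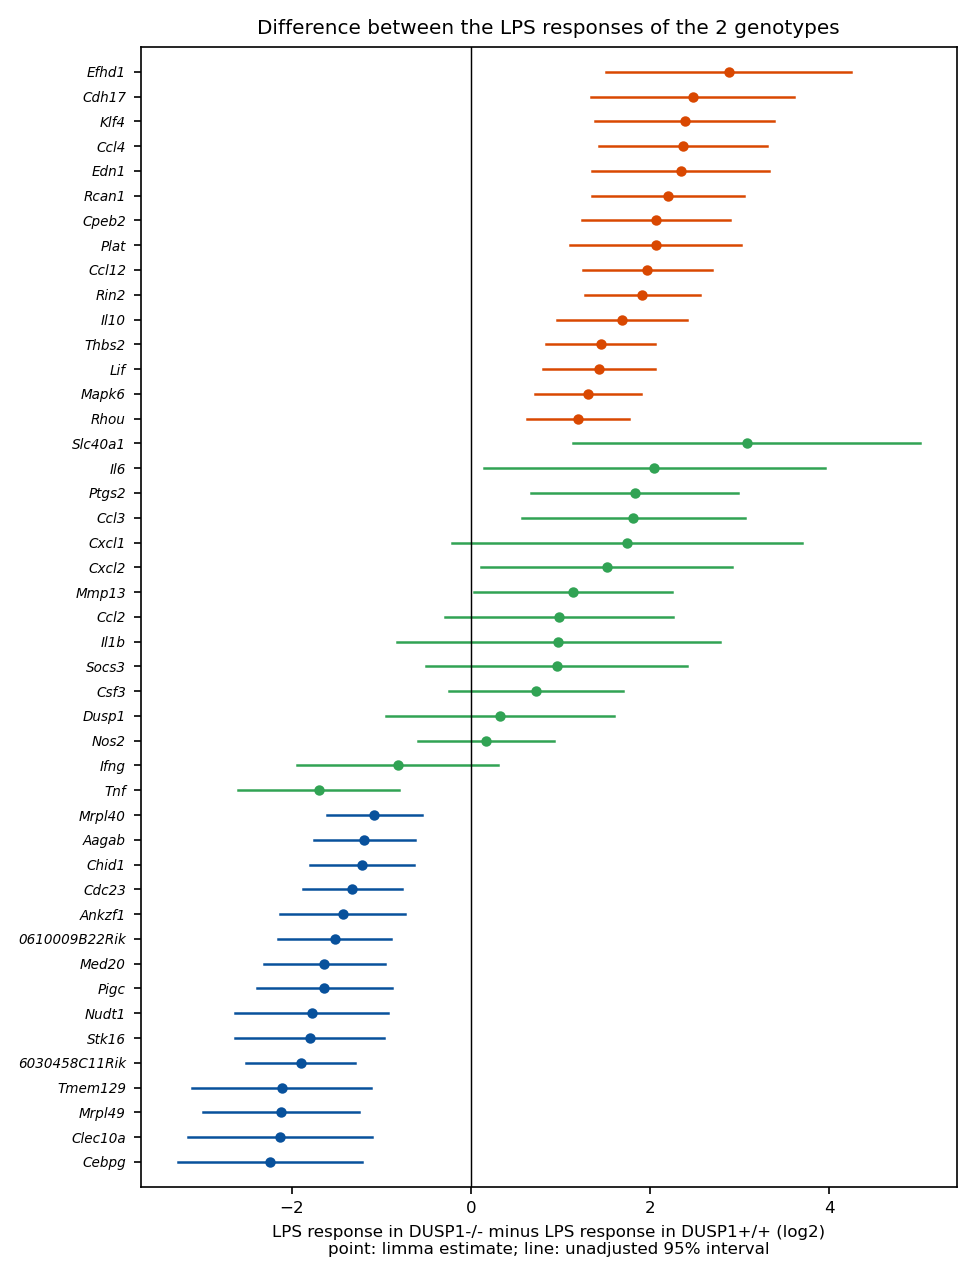
Difference of LPS responses between the genotypes (x axis, log2, DUSP1-/- minus DUSP1+/+) for the 15 genes with the smallest p above 0, the genes always named and the 15 with the smallest p below 0. Points are limma estimates and lines unadjusted 95% intervals; the estimates run from -2.25 (Cebpg) to 3.08 (Slc40a1), and no gene shown passed after adjustment.

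The phosphatase and MAP kinase lists centred near 0, and the immediate-early list slightly above it. Dusp1 itself read 479, 1354 and 627 in DUSP1+/+ controls and 677, 1528 and 1443 in DUSP1-/- controls, and 2248, 2142 and 2116 against 4963, 2948 and 4996 after LPS. It rose in both genotypes, and the libraries labelled DUSP1-/- did not read lower, so this probe set does not check the labels; whether it lies outside the disrupted part of the gene is not given in the sources used here. Its difference of responses was 0.32 ± 0.58 (adjusted p 1.00, limma), and its sign turned without DUSP1-/- control 1 or DUSP1+/+ control 2. Of the 14 measured DUSP phosphatases, Dusp16, a JNK phosphatase, had an unadjusted p under 0.05, with a difference of 1.40 ± 0.44. Map3k8, the kinase Tpl2 that carries the LPS signal to ERK, read 557, 254 and 414 against 938, 483 and 1109 after LPS and rose in both genotypes, with a difference of 1.71 ± 0.51. Over the 20 measured MAP kinase pathway genes 2 such values lay above 0 (Map3k8 and Map2k1) and 1 below (Mapk14, p38 alpha, -0.68 ± 0.31). The medians of these lists, -0.02 and -0.03, change sign when each array is shifted to a common median. Of 26 AP-1, EGR and other immediate-early genes 8 rose and 1 fell in DUSP1+/+ spleen, against 3.93% and 4.16% of all genes. In DUSP1-/- spleen 12 rose, against 5.54%. Klf4, Klf6, Fosl1 and Fos had an unadjusted p under 0.05, all above 0, and the list's median was 0.23. Fos, the AP-1 subunit, read 202, 193 and 234 against 314, 426 and 334 after LPS, without overlap, and 107, 141 and 118 against 28, 109 and 136 in controls.

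For some sensing and feedback genes part of the difference lay in the controls. Nfkbiz, the nuclear IkB protein needed for secondary response genes, read 248, 332 and 203 in DUSP1+/+ controls but 84, 71 and 185 in DUSP1-/- controls, and 1137, 1264 and 1629 against 2121, 1783 and 1965 after LPS. Its difference of responses of 1.86 ± 0.47 was made up of 0.56 after LPS and -1.31 in controls. Zfp36l1, an AU-rich element binding protein, had 1.06 ± 0.33, of which 0.31 lay after LPS and -0.75 in controls. Cd14, the co-receptor that hands LPS to TLR4, read 2187, 1935 and 2081 against 3549, 3885 and 2883 after LPS and rose in both, with a difference of 1.05 ± 0.33. Socs3, the feedback inhibitor of IL-6 signalling, rose in both genotypes and had 0.95 ± 0.66, or 0.23 without DUSP1-/- control 1. Of 23 anti-inflammatory and feedback regulators 14 rose in DUSP1+/+ and 15 in DUSP1-/- spleen, against 3.93% and 5.54% of all genes. The median difference was 0.51, and 3 (Il10, Nfkbiz and Zfp36l1) had an unadjusted limma p under 0.05.

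Ptgs2, cyclooxygenase-2, read 13, 8 and 10 in DUSP1+/+ controls and 150, 65 and 142 with LPS, and 8, 12 and 10 in DUSP1-/- controls and 381, 260 and 576 with LPS. Its responses did not overlap, and the difference was 1.83 ± 0.53 (adjusted p 0.58, limma). Ncf1, the p47 subunit of the phagocyte NADPH oxidase, read 1261, 1625 and 1286 against 315, 316 and 230 after LPS, with a difference of -2.28 ± 0.71. Neither of its responses passed, and its controls were widely spread (222, 596 and 1168 against 370, 815 and 508). Sod2, the mitochondrial superoxide dismutase, rose in both genotypes with tight replicates and had -0.45 ± 0.19. Nos2, the inducible nitric oxide synthase, stayed at 16 to 33 on all 12 arrays. Of the 20 measured prostaglandin, nitric oxide, itaconate and superoxide enzymes 3 had an unadjusted p under 0.05 above 0 and 4 below. Mx1, an interferon-induced antiviral GTPase, read 1479, 313 and 693 against 2825, 969 and 3273 after LPS and had 2.17 ± 0.91. Of 30 interferon-stimulated genes 24 rose in DUSP1+/+ and 25 in DUSP1-/- spleen, against 3.93% and 5.54% of all genes, and the median difference was 0.25.

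Several genes of the red pulp that fell with LPS kept higher values in DUSP1-/- than in DUSP1+/+ mice. Slc40a1, which encodes the iron exporter ferroportin, read 3608, 2738 and 1580 in DUSP1+/+ controls and 46, 25 and 24 after LPS, and 2684, 440 and 1800 in DUSP1-/- controls and 80, 139 and 203 after LPS. It fell by 6.37 on the log2 scale in DUSP1+/+ spleen and fell by 3.29 in DUSP1-/- spleen, a difference of 3.08 ± 0.88 (adjusted p 0.571, limma), and without DUSP1-/- control 2, the array at 440, the difference was 2.30. Cd5l, a secreted protein of tissue macrophages, went from 2534, 2486 and 2419 to 286, 461 and 408 in DUSP1+/+ and from 2395, 1780 and 2845 to 713, 909 and 933 in DUSP1-/- mice. Both falls passed, and the difference was 1.27 ± 0.32. Vcam1, the adhesion molecule of red pulp macrophages and endothelium, Mrc1, the mannose receptor, and Hmox1, which breaks down heme, each fell in DUSP1+/+ spleen and did not pass in DUSP1-/- spleen, with differences of 1.21, 2.29 and 1.15. Of the 22 measured iron handling and red pulp macrophage genes 1 rose and 7 fell in DUSP1+/+ spleen, against 3.93% and 4.16% of all genes. In DUSP1-/- spleen 4 of them fell, against 9.71%. The median difference was 0.34 and 6 had an unadjusted p under 0.05, all above 0. Stab2, a scavenger receptor of sinus endothelium, fell in both genotypes (1033, 1030 and 1065 to 152, 118 and 104, and 816, 1241 and 871 to 216, 455 and 261) with a difference of 1.38 ± 0.39. In whole spleen, fewer cells of a type and less RNA per cell cannot be told apart.

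The genes with the smallest p below 0 all fell with LPS in DUSP1-/- spleen. Cebpg, a bZIP factor that pairs with ATF4 and other C/EBP proteins, read 276, 318 and 195, then 265, 179 and 215 in DUSP1+/+ mice, and 187, 194 and 250, then 61, 23 and 36 in DUSP1-/- mice. Its value in DUSP1+/+ spleen, -0.25 ± 0.33, did not pass, it fell in DUSP1-/- spleen by 2.50 ± 0.33, and the difference was -2.25 ± 0.47 (adjusted p 0.307, limma). Mrpl49, a mitochondrial ribosomal protein, read 187, 205 and 219 against 96, 44 and 54 after LPS, with a difference of -2.12 ± 0.39. Med20, a subunit of the Mediator complex, read 225, 225 and 243 against 84, 54 and 80 and had -1.64 ± 0.31. Cdc23, a subunit of the anaphase-promoting complex, read 116, 108 and 109 against 50, 40 and 37 and had -1.33 ± 0.25. In each of these the controls of the genotypes overlapped and the treated groups did not.

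The lowest adjusted p below 0, 0.228 (limma), belonged to 6030458C11Rik, an uncharacterised gene, which read 153, 140 and 164 against 54, 35 and 38 after LPS (-1.91 ± 0.28). The other genes of this set were 0610009B22Rik, Pigc, which acts in GPI anchor synthesis, Stk16, a serine/threonine kinase, Aagab, Tmem129, Chid1, Clec10a, a galactose-type lectin of macrophages and dendritic cells, Nudt1, which hydrolyses oxidised nucleotides, Ankzf1 and Mrpl40, another mitochondrial ribosomal protein. These 15 genes, ranked by their p below 0, had differences of -2.25 to -1.08. Their control differences between genotypes ran from -0.31 to 0.91 and their differences after LPS from -2.55 to -0.74. In 3 of them (Clec10a, Nudt1 and Mrpl40) every DUSP1-/- control lay above every DUSP1+/+ control, with control differences of 0.91, 0.63 and 0.35. All 15 fell in DUSP1-/- spleen, where 9.71% of all genes fell, and 1 (0610009B22Rik) fell in DUSP1+/+ spleen. After LPS 10 of the 15 differed between genotypes by test on arrays that the ranking also used, against 0.363% of all genes. For several of them other probe sets moved less: with the median over all probe sets of a gene the values were -1.22 for 6030458C11Rik, -0.89 for Pigc, -0.59 for Aagab and -0.41 for Ankzf1. On the LPS arrays the 3′ to 5′ log2 ratios were higher in DUSP1-/- mice, where these genes were lower. The highest ratios of all arrays lay on DUSP1+/+ control 1 (actin 1.47, Gapdh 0.802) and DUSP1-/- control 3 (0.934 and 0.607). The part of the ratios in the values was not tested.

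Genes of amino acid and stress metabolism had values below 0. Psat1, an enzyme of serine synthesis, read 138, 120 and 124 in DUSP1+/+ controls and 581, 718 and 1398 after LPS, against 88, 246 and 136 and then 436, 79 and 229 in DUSP1-/- mice. It rose by 2.72 ± 0.58 in DUSP1+/+ spleen, the DUSP1-/- value of 0.47 ± 0.58 did not pass, and the difference was -2.24 ± 0.81. Ddit3, the stress factor CHOP, went from 164, 173 and 183 to 361, 411 and 484 in DUSP1+/+ mice and from 174, 199 and 216 to 262, 108 and 143 in DUSP1-/- mice, a difference of -1.56 ± 0.39. Chac1, which degrades glutathione, and Mthfd2, a mitochondrial folate enzyme, rose in DUSP1+/+ spleen and had differences of -2.08 ± 0.92 and -1.22 ± 0.52. The LPS arrays of the genotypes overlapped for both. Chac1 read 127, 647 and 494 against 260, 94 and 49 after LPS, and Mthfd2 556, 974 and 975 against 710, 254 and 340. DUSP1-/- LPS array 1 had the highest DUSP1-/- value of both genes and lay above the lowest DUSP1+/+ value. Of the 22 measured serine synthesis, ATF4 and unfolded protein response genes 9 rose in DUSP1+/+ spleen, where 3.93% of all genes rose, and 1 in DUSP1-/- spleen, where 5.54% did. The median difference was -0.65, 15 of 22 values lay below 0, and 4 had an unadjusted p under 0.05. The mean log2 intensity of the list after LPS was 8.74, 9.34 and 9.36 in DUSP1+/+ and 8.86, 8.39 and 8.36 in DUSP1-/- mice, which overlapped.

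The 46 gene lists together held 59 members with an unadjusted p under 0.05 above 0 (8.35% of 707) and 19 below (2.69%). Members of several lists were counted once, and the shares of all genes were 2.48% above and 3.98% below. Of the 8099 genes above the intensity cut used for naming, 261 lay above 0 and 476 below at that p (9.1% in all). The lists were chosen with earlier results of these data known, so these shares are a description and not a test. No list member passed after adjustment. The median lay above 0 in 30 lists and below 0 in 16, and over all genes it was -0.05, or 0.04 when each array was shifted to a common median. Cell cycle and proliferation genes had a median of -0.55 with 23 of 25 values below 0, and nuclear-encoded respiratory chain subunits -0.34 with 19 of 24 below 0, with 0 and 2 members at an unadjusted p under 0.05. DUSP1-/- control 1 stood apart in the cell cycle list (mean log2 intensity 9.36, against 7.12 and 7.03 on the other DUSP1-/- controls) and in the erythroid list (10.27 against 6.26 and 5.65), and the part of these values in the median was not tested. Neutrophil markers had a median of -0.41 and B cell and T cell markers -0.06 and 0.22, of which that of B cells changed sign under a common median. Cytosolic ribosomal proteins had a median of -0.004.

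**Figure D5:**
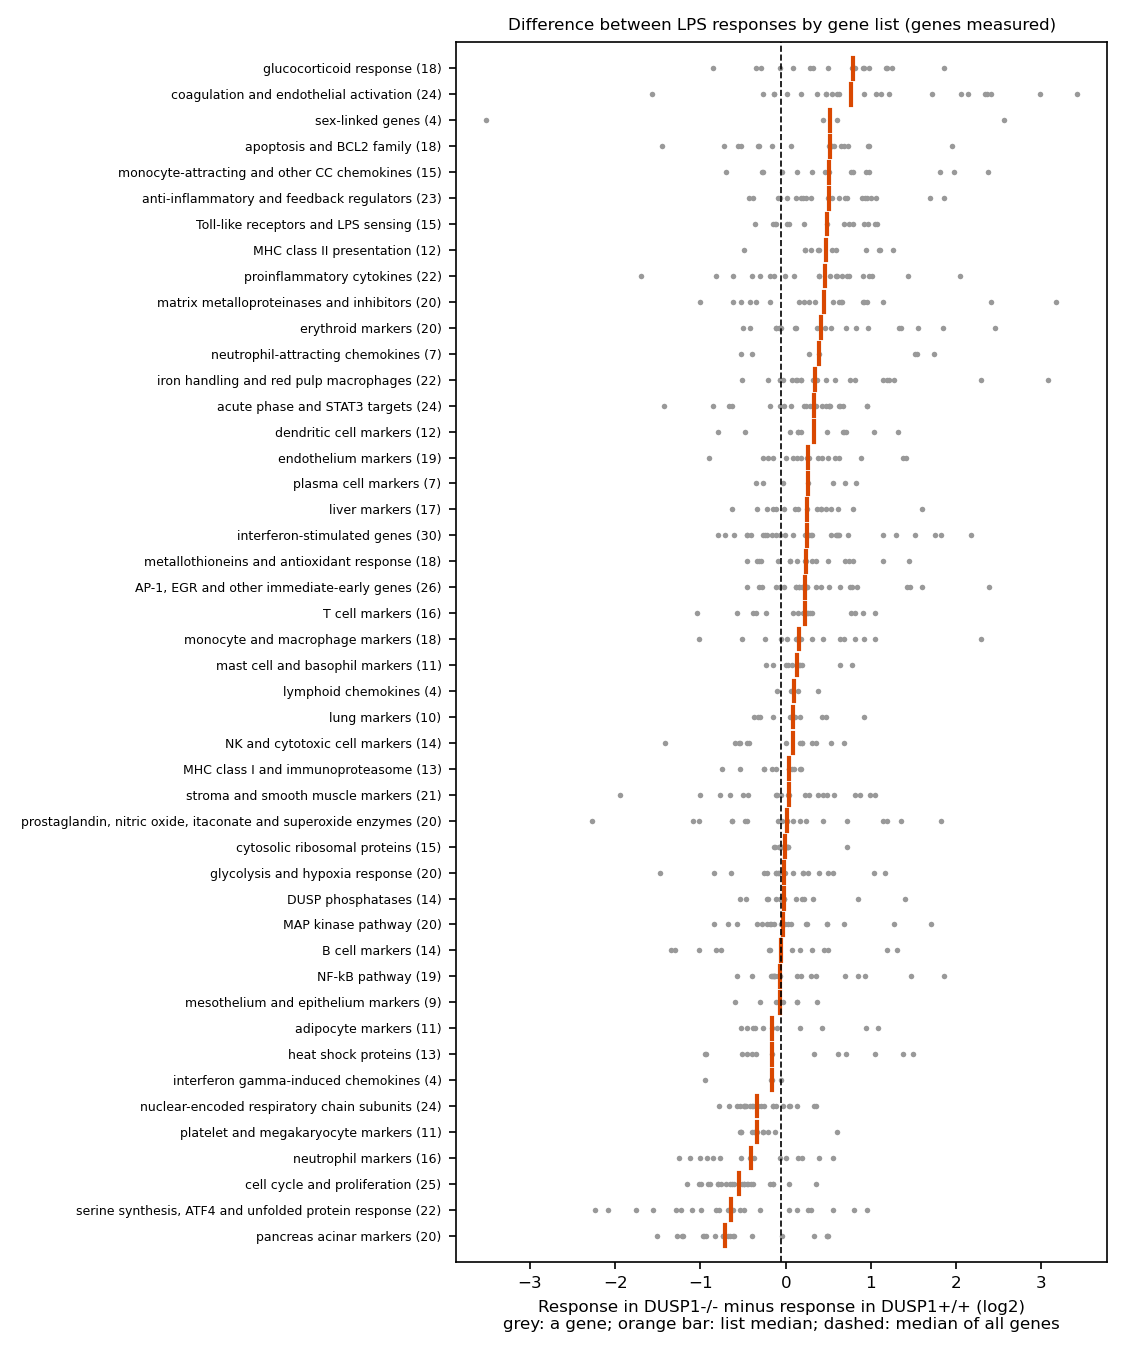
Difference of LPS responses (x axis, log2) for the measured members of all 46 gene lists, with 1 grey point per gene, an orange bar at the median of each list and a dashed line at the median of all genes. The coagulation and endothelial activation list has a median of 0.77, the serine synthesis and ATF4 list -0.65 and the cell cycle list -0.55.

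Of the 17 genes always named, 15 had a difference above 0 and 9 had an unadjusted limma p under 0.05. In 13 every DUSP1-/- LPS array lay above every DUSP1+/+ LPS array, against 8.73% of all genes (9.6% had all below, Tnf among them). The 17 genes were chosen with earlier results of these data known, so these counts are a description and not a test. The single array DUSP1-/- control 2 was the highest of the 6 controls for 12 of these 17 genes and for 24 of the 48 genes of the cytokine and chemokine lists (50%), against 36.8% of all genes. Leaving it out moved the differences of Il6 to 2.81, Ccl3 to 2.32, Cxcl1 to 2.46 and Cxcl2 to 2.13, none of which passed. Without the 3 arrays high in pancreas transcripts, where it is the lone DUSP1-/- control, they were 0.49 for Il6, 0.80 for Ccl3, 0.92 for Cxcl1, 0.34 for Cxcl2, 0.015 for Ccl2 and 0.12 for Csf3, and with Y-linked signal as a covariate Cxcl1 had 0.53. The same genes thus depend on which control arrays enter, while the lowest value over the alternatives run was 1.93 for Ccl4 and 1.45 for Il10.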

How the data were processed

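RNA of 12 mouse spleens, 3 per group, was measured on single-colour arrays. The deposited values are intensities on a linear scale, written as whole numbers of 6 to 15228, which the authors made with the RMA algorithm, per the submitters' processing notes and design text; array medians were 47 to 63. They were taken to log2 with no further scaling, and 4 group means were fitted with limma 3.58.1 in R 4.3.3 (lmFit, eBayes; 8 residual degrees of freedom) for 5 contrasts, with Benjamini-Hochberg adjustment over 22626 probe sets and a threshold of 0.05. Of the probe sets, 20380 name 1 gene, 691 several and 1555 none in the platform annotation; each gene is shown by its brightest probe set that names it alone. Depth does not apply to arrays, and their number limits the precision. The labels give separate mice, so the spread is between animals. The script was tested on simulated data.

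Named were the 15 genes with the smallest p in each direction, since fewer than 15 passed (mean above the 40th percentile of probe sets), 17 genes always named, and up to 4 members of each of 46 lists with the smallest p. Of 805 written list members 707 were measured. Members, lists and rules were chosen with earlier results of these data known. Promoters came from a set of RefSeq promoter windows (GRCm38.p6) that held 80 of the 106 named genes. Alternatives covered scaling, floors, a pseudocount, dim probe sets, the variance model, weights, covariates, the replicate number and left-out arrays.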

Additional observations from a re-analysis of the deposited data

Results flagged for a closer look

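In 7 of the 106 named genes every pairing of an LPS with a control array moved one way in DUSP1+/+ mice and the opposite way in DUSP1-/- mice, while the limma test of the difference did not pass. Below, each difference of responses is DUSP1-/- minus DUSP1+/+ on the log2 scale. Rcan1 (2.20, adjusted p 0.252), the calcineurin inhibitor, had responses of -0.42 and 1.78. Thbs2 (1.45, adjusted p 0.265), a matrix glycoprotein, had -0.66 and 0.79. Mmp12 (3.17, adjusted p 0.412), macrophage elastase, had -0.38 and 2.79. Pou2af1 (1.19, adjusted p 0.507), a coactivator of B cells, had -0.56 and 0.63, and its controls read 2116, 1880 and 1912 against 992, 768 and 1609. In the opposite sense, Clec10a (-2.14, adjusted p 0.323) had responses of 0.66 and -1.48, Nudt1 (-1.78, adjusted p 0.323) had 0.51 and -1.27, and Ncf1 (-2.28, adjusted p 0.66) had 1.36 and -0.91. Controls without overlap were also seen for Clec10a (47, 52 and 52 against 57, 96 and 153) and Nudt1 (136, 122 and 134 against 241, 150 and 226). None of the 7 responses in DUSP1+/+ spleen passed. Over all 12393 genes, 8 fell in every DUSP1+/+ pairing and rose in every DUSP1-/- pairing, and 15 did the reverse, as counts of array values and not of calls.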

How the results depend on the processing

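The counts of genes whose responses differed were 0 above and 0 below, and they moved under these alternatives: 7 above and 1 below with a floor of 50; 1 above, Serpinb2, with an intensity trend and robust prior; 3 above and 1 below with Y-linked signal as a covariate; and 81 above and 21 below without the 3 arrays high in pancreas transcripts, a fit in which the lone DUSP1-/- control is assumed to vary like the other groups. Leaving out 1 array gave 0 to 1 above and 0 to 1 below: Serpinb2 without DUSP1-/- LPS 2, and Xist without DUSP1+/+ control 1. The other alternatives left both counts at 0. With the floor of 50 the 7 above were Ccl12, Ccn1, Edn1, Lif, Ptx3, Rin2 and Slc7a11, and the 1 below was 6030458C11Rik. Values under 50 become equal at that floor, which lowers the spread within groups: the SE of Ptx3 was 0.034 there, against 0.476 in the main fit.

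The 1002 calls in DUSP1+/+ spleen became 508 with a floor of 50, 1890 with array weights, 479 with the Y-linked covariate, and 389 to 1290 with 1 array left out. The 1889 in DUSP1-/- spleen became 1096 with a floor of 50 and 988 to 2018 with 1 array left out. The 45 after LPS became 27 without dim probe sets, 1280 with weights, 69 with the pancreas and 27 with the liver covariate, 79 without the 3 arrays, and 3 to 68 with 1 array left out. The 0 in controls (176 genes had an unadjusted p under 0.05, limma) became 10 with the Y-linked covariate, 155 without the 3 arrays and 0 to 1 with 1 left out. Responses without overlap numbered 1026 above and 2444 below without the 3 arrays, and 181 to 328 and 206 to 539 with 1 left out, where fewer pairings must agree. The cause of the other shifts was not tested. Higher calls made up 48.6% and 36.3% of the DUSP1+/+ and DUSP1-/- LPS calls, and 59.5% and 55.1% after shifting arrays to 1 median, which moved the median over all genes from -0.06 to 0.15 in DUSP1-/- spleen.

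Replicate numbers did not pair the mice: deviations of same-numbered arrays correlated at -0.584 to 0.629, 6 of 18 pairs were over 0.1, and the best match shared the number in 11 of 36 cases. With the number as a block, the difference of responses still gave 0 calls and the genotype difference after LPS 12.

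Of 3066 values of named genes under alternatives, 3041 kept their direction and side of the threshold, 18 newly passed and 7 turned: Dusp1 to -0.31 with the Y-linked covariate, -0.055 without DUSP1-/- control 1 and -0.11 without DUSP1+/+ control 2 (-0.11 to 0.64 over left-out arrays); Nos2 to -0.39 without the 3 arrays and -0.044 without DUSP1-/- LPS 2 (-0.044 to 0.40 over left-out arrays); Il1b to -0.059 without the 3 arrays; and F10 to 0.20 with the median over its probe sets. Of array values, 30.8% were under 20, which limits fold changes of genes silent in controls.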

Other observations

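Glucocorticoid-responsive genes had a median difference of responses of 0.78 over 18 measured genes, 14 of them above 0, next to 0.77 for the coagulation and endothelial list. Klf9, a Krüppel-like factor induced by the glucocorticoid receptor, read 357, 182 and 350 in DUSP1+/+ and 399, 432 and 581 in DUSP1-/- LPS arrays, with a difference of 1.19 ± 0.45 (limma, adjusted p 0.832), or 0.42 with the median over its probe sets. Bcl6, a transcriptional repressor of germinal centres, had 1.18 ± 0.49. In this list 5 genes rose and 1 fell in each genotype. Of all genes 3.93% rose and 4.16% fell in DUSP1+/+ spleen, and 5.54% and 9.71% in DUSP1-/- spleen. The list's median in controls, DUSP1-/- minus DUSP1+/+, was -0.37.

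Genes of apoptosis had a median of 0.52 over 18 genes. Pmaip1, the BH3-only protein Noxa, read 430, 156 and 306 in DUSP1+/+ and 904, 414 and 1141 in DUSP1-/- LPS arrays, which overlapped, and it rose in DUSP1-/- spleen (2.28 ± 0.46). Casp9, the initiator caspase of the mitochondrial route, read 71, 62 and 53 against 20, 27 and 30 and fell in DUSP1-/- spleen, with a difference of -1.45 ± 0.46. Of the list 0 genes rose in DUSP1+/+ spleen, where 3.93% of all genes did, and 7 rose and 2 fell in DUSP1-/- spleen, where 5.54% and 9.71% did.

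MHC class II genes had a median of 0.47 with 11 of 12 values above 0. H2-Aa, a class II alpha chain, read 3299, 3038 and 2690 in DUSP1+/+ and 4263, 5026 and 4523 in DUSP1-/- LPS arrays, without overlap, and its difference was 1.10 ± 0.36, to which the controls contributed with -0.49. Platelet and megakaryocyte markers had 10 of 11 values below 0 with a median of -0.34, and 0 of them had an unadjusted p under 0.05. Pdgfrb, a receptor of stromal cells, read 227, 157 and 187 against 35, 68 and 16 after LPS and fell in DUSP1-/- spleen, with a difference of -1.94 ± 0.69. Its list did not share this: of 21 measured stroma and smooth muscle markers 12 lay above 0 and 9 below, with a median of 0.03. At an unadjusted limma p under 0.05, 1 lay above 0 (Myh11, 1.05) and 2 below (Pdgfrb and Tlx1). Csf1r, the receptor of macrophage growth factor, fell in both genotypes (5521, 5670 and 5755 to 1768, 2030 and 1942, and 5408, 5364 and 5865 to 2710, 4257 and 2383) and had 0.69 ± 0.28.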
